A study of Drosophila melanogaster with 36 samples.

Results

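The Toll protease cascade and the melanization reaction are proteolytic arms of humoral immunity in *Drosophila*, and 10 of their genes were followed here in flight muscle: the Toll ligand *spz*, the extracellular serine proteases *grass*, *psh*, *SPE*, *Hayan*, *MP1* and *Sp7*, the serpin *nec*, and the prophenoloxidases *PPO1* and *PPO2*. They were taken from the count table by symbol, and all 10 of 10 were found among its 16727 genes and passed the filter on low counts, which left 9996 genes. Libraries were made from IFM of pools of 10 females aged 3 weeks, taken at 4 h intervals at ZT3, ZT7, ZT11, ZT15, ZT19 and ZT23, with 1 library per group and time. ZT0 was 9 AM, at lights on, and the light phase lasted 12 h. HFD flies were Canton-S flies on a high-fat diet made with coconut oil, *Sk2* flies were *Sphingosine kinase 2* mutants on regular food, and WT flies were Canton-S on regular food. Each model was kept under time-restricted feeding (TRF), with food in the day and agar at night, or *ad libitum* feeding (ALF), with food in both. The *Sk2* stock is not stated to share the Canton-S background, so mutation and background cannot be told apart. HFD-TRF, HFD-ALF, *Sk2*-TRF and WT-ALF had 6 libraries, and *Sk2*-ALF and WT-TRF had 5, after the outliers named by the study were left out.

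In the fly, Toll is not opened by microbes directly. Recognition proteins and microbial proteases start chains of clip-domain serine proteases in the haemolymph, which end in the cleavage of pro-Spätzle. Cleaved Spätzle binds the receptor Toll and frees NF-κB factors from Cactus, and the fat body then secretes antimicrobial peptides. A related set of proteases cleaves prophenoloxidases, which make melanin at wounds and around parasites, and serpins hold both chains in check. Fat body and blood cells are the known sources of most of these proteins.

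IFM libraries held the markers of flight muscle (8 of 8 detected, summed level 19120 to 60000 CPM) and also markers of fat body (10240 to 69070 CPM) and haemocytes (774.5 to 1487 CPM), so RNA of these tissues was in the libraries. Depth differed between models, with medians of 20984727.5 counts in HFD-TRF, 11277916 in HFD-ALF, 21153135.5 in *Sk2*-TRF, 16492067 in *Sk2*-ALF, 8560067 in WT-TRF and 8032719.5 in WT-ALF. The *Sk2* transcript itself was at 1.11 to 5.48 CPM in *Sk2*-TRF and 1.52 to 4.45 CPM in *Sk2*-ALF, against 4.94 to 9.76 CPM in WT-TRF and 5.57 to 9.12 CPM in WT-ALF. In pooled tissue, fewer cells of a type and less RNA per cell cannot be told apart.

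None of the 10 genes was rare in these libraries. Per exon length, the highest mean levels over the 34 libraries were those of *SPE* (75.7 RPKM), *MP1* (70.5 RPKM) and *nec* (62.7 RPKM), above 89.2%, 88.6% and 87.4% of the genes tested. The lowest were those of *PPO2* (15.7 RPKM), *grass* (13.3 RPKM) and *Hayan* (11.4 RPKM), still above 62.9%, 58.8% and 55% of genes. *PPO1*, *Sp7*, *spz* and *psh* lay between, from 28.8 RPKM for *PPO1* to 20.99 RPKM for *psh*. The smallest count of any of the 10 in a library used was 38, for *grass* in WT-TRF. Within groups, the genes differed in how much they varied from library to library. The SD of log2 CPM was 0.71 for *PPO2* and 0.56 for *PPO1*, against a median of 0.34 over all genes tested, and 0.25 for *psh* and 0.24 for *MP1*.

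The positions of the 10 genes, all protein-coding, are those of the count table on dm6. *spz* (FBgn0003495) is at 3R:27064990-27070070, *SPE* (FBgn0039102) at 3R:23686255-23688147, *grass* (FBgn0039494) at 3R:27157948-27159781, *MP1* (FBgn0027930) at 3R:4307908-4309835 and *Sp7* (FBgn0037515) at 3R:7759786-7763573. *Hayan* (FBgn0030925), at X:18479983-18483772, and *psh* (FBgn0030926), at X:18484487-18486921, are neighbours on the minus strand with 714 bases between them. *nec* (FBgn0002930) is at 2R:7156477-7158241, *PPO1* (FBgn0283437) at 2R:17887220-17889973 and *PPO2* (FBgn0033367) at 2R:9042261-9044709. Of the 1267 exon bases of *SPE*, 107 are shared with *CG18754* on the same strand, and featureCounts by default leaves out reads that fall in both genes. *CG18754* was at 0.155 to 2.75 CPM in all groups, far below *SPE*. *MP1*, *spz* and *Hayan* share exon bases only with genes on the other strand, which the stranded counting keeps apart.

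**Figure D1:**
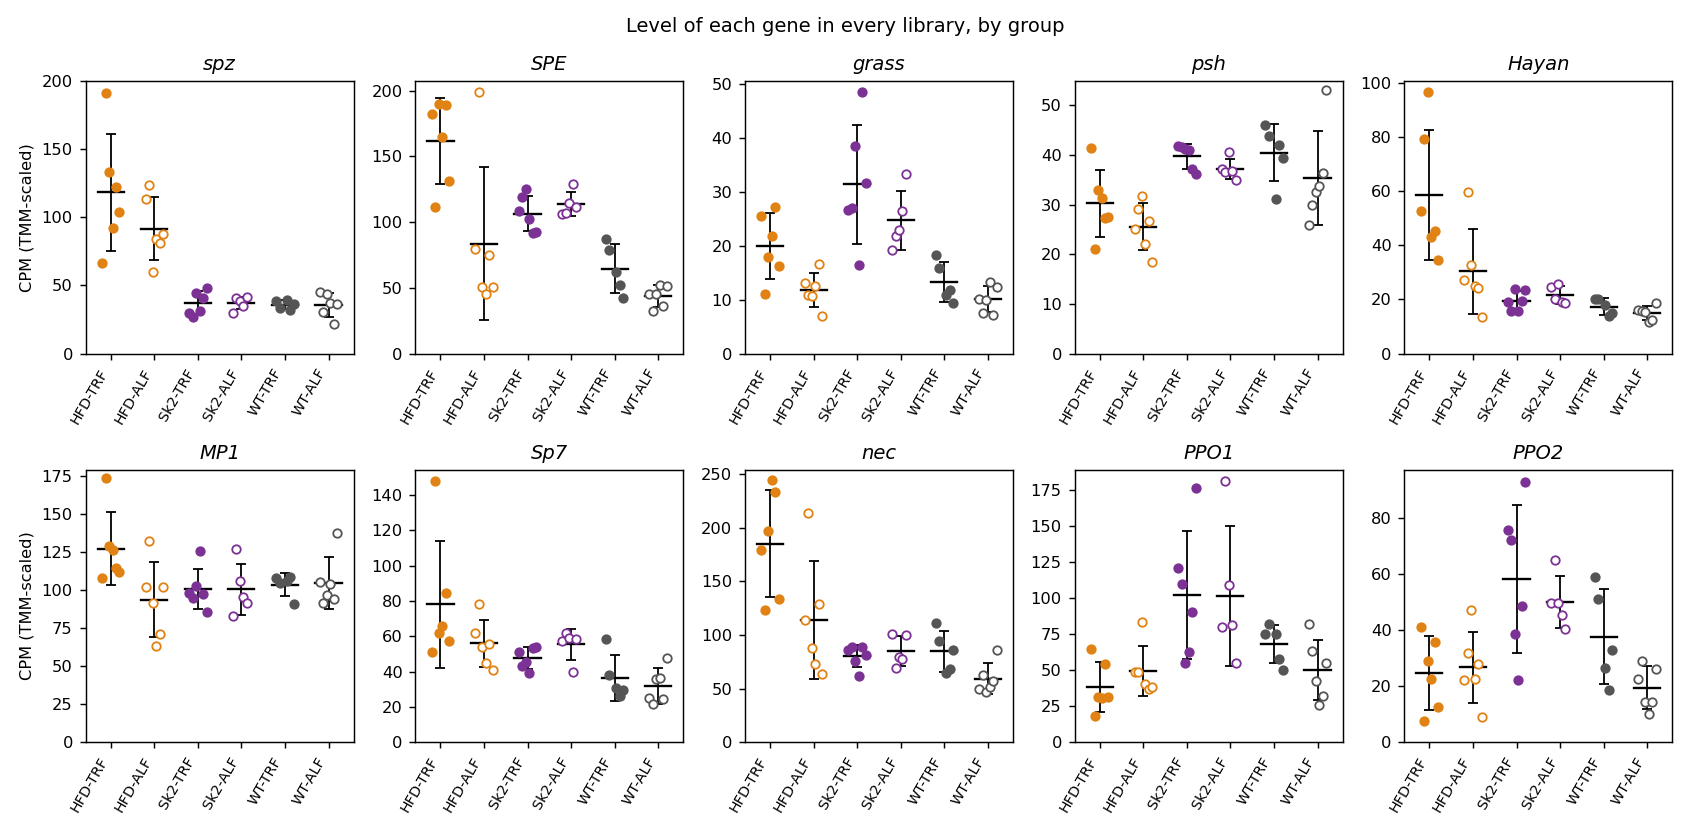
Level of the 10 genes in each of the 34 libraries, in CPM on a linear axis from 0. Each point is 1 library (filled, TRF; open, ALF; points are shifted sideways by time of day), and bars show the mean ± SD of the group; *spz* libraries of HFD flies (60.1 to 192 CPM) all lie above those of *Sk2* and WT flies (21.6 to 48.0 CPM).

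The first question was how the diet-induced model differed from WT. In HFD libraries the ligand, its processing enzyme and the serpin *nec* were higher than in WT under both regimens. So were the wound-linked protease *Hayan* and the melanization protease *Sp7*. Under ALF, 6 of the 10 genes were called, 5 higher and 1 lower, where 16.6% of all genes tested were called (9.42% higher and 7.17% lower). Under TRF, 5 of 10 were called, all higher, where 10.5% of all genes were called (5.73% higher). The median log2 fold change of the 10 genes was 0.63 under ALF and 0.84 under TRF, beside -0.06 and -0.02 over all genes tested.

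*spz* encodes Spätzle, the ligand of Toll. It was at 66.8 to 192 CPM in HFD-TRF (median 113), against 38.4, 33.4, 39.4, 31.8 and 36.5 CPM in WT-TRF. Under ALF it was at 60.1 to 124 CPM in HFD (median 86.0), against 21.6 to 45.1 CPM in WT (median 36.8). In both regimens every HFD library was above every WT library used. The left-out WT-TRF library of ZT11, at 111 CPM, was above HFD-TRF at ZT3 (66.8 CPM), ZT15 (92.4 CPM) and ZT23 (103.93 CPM). The log2 fold change was 1.72 under TRF (SE 0.22, adjusted p 1.498e-05) and 1.36 under ALF (SE 0.20, adjusted p 7.709e-05), and both calls were kept in all 42 alternative settings.

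*Hayan*, a protease needed for melanization at wounds, was at 34.7 to 96.5 CPM in HFD-TRF (median 48.9), against 20.03, 20.3, 18.03, 13.7 and 14.9 CPM in WT-TRF. Under ALF it was at 13.5 to 59.8 CPM in HFD (median 26.1), against 11.8 to 18.7 CPM in WT (median 15.4). The TRF groups did not overlap, while under ALF the HFD library at ZT23 lay within the WT range. Its log2 fold change was 1.74 under TRF (SE 0.27, adjusted p 9.579e-05) and 1.02 under ALF (SE 0.25, adjusted p 0.005862).

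*psh*, whose protease senses microbial proteases and acts in parallel to the pattern recognition branch, went the other way. It was at 18.5 to 31.8 CPM in HFD-ALF (median 25.9), against 25.9 to 53.2 CPM in WT-ALF (median 33.1), and was lower in HFD at 6 of 6 times. In the day the gap was small, at 25.2 against 25.9 CPM (ZT3), 29.2 against 29.9 CPM (ZT7) and 31.8 against 32.6 CPM (ZT11). The gap was widest at ZT23, at 18.5 against 53.2 CPM. The log2 fold change under ALF was -0.47 (SE 0.15, adjusted p 0.02782). Under TRF it was -0.42 (SE 0.15, adjusted p 0.07641), which missed the threshold but was called by DESeq2 (adjusted p 0.0499) and without WT-ALF at ZT23 or HFD-TRF at ZT3, with adjusted p of 0.0187 to 0.407 over the 42 settings. The call under ALF was lost over all 36 libraries and in 14 of the 34 fits that left out a library (adjusted p up to 0.239).

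The ratio of the neighbours *Hayan* and *psh* set HFD apart from the other models. The ratio of *Hayan* to *psh* CPM was 1.26 to 3.76 in HFD-TRF and 0.73 to 2.05 in HFD-ALF. It was 0.326 to 0.579 in WT-TRF, 0.344 to 0.628 in WT-ALF, 0.376 to 0.654 in *Sk2*-TRF and 0.52 to 0.659 in *Sk2*-ALF. No HFD library reached down to the values of the other models. The summed fat body markers, which within groups varied with *psh* (Pearson r = 0.76 over 34 libraries, as a description), were at 12950 to 27880 CPM in HFD-ALF, against 27370 to 47510 CPM in WT-ALF. Of the 6 fat body markers tested, 1 was called lower in HFD under ALF, where 7.17% of all genes were. Their part in the *psh* result was not tested.

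*nec*, the serpin that restrains Toll activation upstream of Spätzle, was at 123 to 244 CPM in HFD-TRF (median 188), against 111, 94.1, 64.4, 68.0 and 86.2 CPM in WT-TRF. Under ALF it was at 64.0 to 214 CPM in HFD (median 101), against 47.0 to 86.4 CPM in WT (median 54.6). Its log2 fold change was 1.12 under TRF (SE 0.24, adjusted p 0.002439) and 0.94 under ALF (SE 0.22, adjusted p 0.004798). The groups were apart under TRF and overlapped under ALF.

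*SPE*, the protease that cleaves pro-Spätzle, was at 112 to 190 CPM in HFD-TRF (median 173), against 87.4, 79.0, 61.9, 52.4 and 42.1 CPM in WT-TRF. The log2 fold change was 1.32 (SE 0.27, adjusted p 0.001818), with no overlap. Under ALF *SPE* was at 45.3 to 199 CPM in HFD (median 63.0), against 32.5 to 52.2 CPM in WT (median 45.1), a log2 fold change of 0.93 (SE 0.25, adjusted p 0.01135). That call rested on the HFD-ALF library at ZT7, and it was also lost in a fit of only the groups compared (adjusted p 0.0811 in edgeR). Leaving ZT7 out gave a log2 fold change of 0.46 (adjusted p 0.0686), and the remaining 5 libraries averaged 60.3 ± 15.7 CPM (SD).

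*Sp7*, which activates prophenoloxidase, averaged 78.2 ± 36.1 CPM in HFD-TRF (SD, n = 6), against 36.6 ± 12.97 CPM in WT-TRF (n = 5), a log2 fold change of 1.09 (SE 0.24, adjusted p 0.00396). Under ALF it averaged 56.0 ± 13.2 CPM in HFD and 31.9 ± 9.92 CPM in WT (n = 6 each), a log2 fold change of 0.81 (SE 0.23, adjusted p 0.01528). Groups overlapped in both regimens. The other melanization protease, *MP1*, differed little, at 128 ± 24.2 CPM in HFD-TRF against 104 ± 7.44 CPM in WT-TRF, and 93.8 ± 24.7 CPM in HFD-ALF against 105 ± 17.1 CPM in WT-ALF. The 95% intervals of its log2 fold change were -0.01 to 0.61 under TRF and -0.46 to 0.13 under ALF.

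Unlike *Hayan* and *Sp7*, the prophenoloxidases were not called higher in HFD. Their change was not tested against that of the proteases. *PPO1* averaged 38.4 ± 17.3 CPM in HFD-TRF against 68.0 ± 13.3 CPM in WT-TRF, and 49.4 ± 17.4 CPM in HFD-ALF against 50.1 ± 20.9 CPM in WT-ALF. *PPO2* averaged 24.8 ± 13.1 CPM in HFD-TRF against 37.7 ± 16.98 CPM in WT-TRF, and 26.7 ± 12.6 CPM in HFD-ALF against 19.5 ± 7.61 CPM in WT-ALF. Neither was called. *PPO1* was lower in HFD at 5 of 5 times under TRF (log2 fold change -0.83, SE 0.33, adjusted p 0.1093), and the 95% intervals for *PPO2* were -1.42 to 0.19 under TRF and -0.32 to 1.24 under ALF. *grass*, the protease of the pattern recognition branch, was not called either, at 19.9 ± 6.08 CPM in HFD-TRF against 13.3 ± 3.70 CPM in WT-TRF (adjusted p 0.1425).

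**Figure D2:**
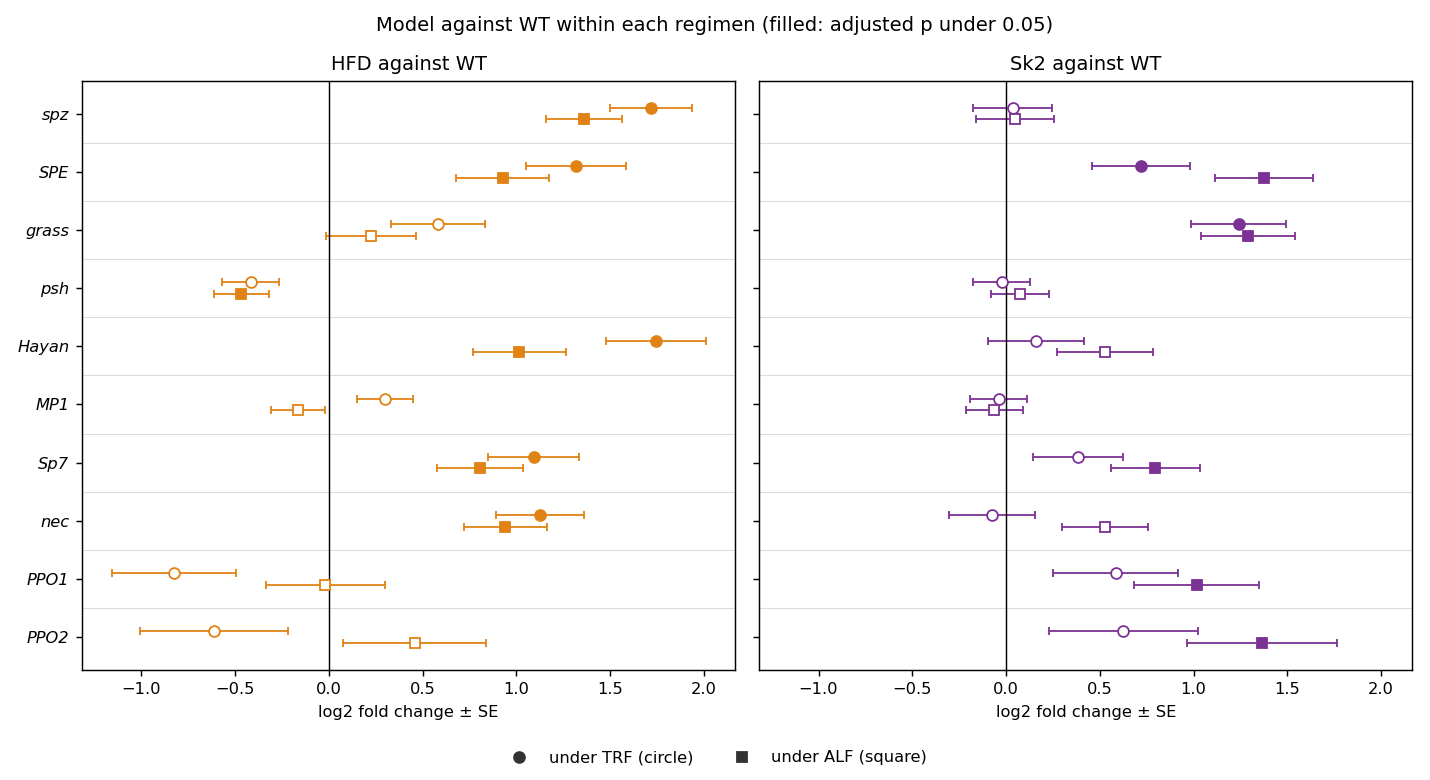
Log2 fold change (± SE, edgeR) of each gene in HFD (left) and *Sk2* (right) against WT, under TRF (circles) and ALF (squares); filled symbols are called at an adjusted p under 0.05. *spz*, *Hayan*, *nec*, *SPE* and *Sp7* are called higher in HFD in both regimens, and *grass* and *SPE* in *Sk2* in both regimens.

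The *Sk2* mutants differed from WT in members that only partly matched those of HFD. Under ALF, 5 of the 10 genes were called, all higher (*grass*, *SPE*, *Sp7*, *PPO1* and *PPO2*), where 22.8% of all genes tested were called (10.2% higher). Of these, *SPE* and *Sp7* were also called higher in HFD under ALF, and *SPE* was called in both models under TRF. *nec* (adjusted p 0.09898 in edgeR) and *Hayan* (0.1402) were not called in *Sk2*-ALF but were higher than in WT-ALF at 5 of 5 times. Under TRF, 2 of 10 were called, *grass* and *SPE*, both higher, where 24.9% of all genes were called (12.3% higher), so that the share among the 10 was near the background. The median log2 fold change of the 10 genes was 0.66 under ALF and 0.27 under TRF, beside -0.004 and -0.05 over all genes tested.

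*grass* encodes the protease that passes the signal of modSP, bound to recognition proteins, down to SPE. It was at 19.1, 21.7, 22.9, 26.4 and 33.2 CPM in *Sk2*-ALF, against 7.20 to 13.2 CPM in WT-ALF (median 10.0). Under TRF it was at 16.3 to 48.5 CPM in *Sk2* (median 29.3), against 18.4, 15.8, 10.8, 11.9 and 9.44 CPM in WT. The ALF groups were apart, and under TRF only the *Sk2* library at ZT15 fell within the WT range. The left-out *Sk2*-ALF library of ZT23 (12.52 CPM) was within the WT-ALF range. The log2 fold change was 1.29 under ALF (SE 0.25, adjusted p 0.0002759) and 1.24 under TRF (SE 0.25, adjusted p 0.0005604), and both calls were kept in all 42 alternative settings.

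*SPE* was at 106, 107, 115, 129 and 112 CPM in *Sk2*-ALF, against 32.5 to 52.2 CPM in WT-ALF, a log2 fold change of 1.38 (SE 0.26, adjusted p 0.0002057). Under TRF it was at 91.6 to 125 CPM in *Sk2* (median 106), against 42.1 to 87.4 CPM in WT, a log2 fold change of 0.72 (SE 0.26, adjusted p 0.04204). *Sk2* and WT libraries did not overlap in either regimen. The call under TRF was lost in 7 fits that left out 1 library, with adjusted p up to 0.0928. Those 7 were the fits without WT-TRF at ZT15, ZT19 or ZT23, or without *Sk2*-TRF at ZT3, ZT7, ZT11 or ZT15.

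*PPO1* and *PPO2*, the prophenoloxidases made by crystal cells, rose in *Sk2*-ALF. *PPO2* was at 49.7, 65.3, 49.6, 45.3 and 40.6 CPM in *Sk2*-ALF, against 10.0 to 29.1 CPM in WT-ALF (median 18.5), with no overlap (log2 fold change 1.37, SE 0.40, adjusted p 0.01227). *PPO1* was at 80.2, 181, 109, 81.4 and 54.7 CPM in *Sk2*-ALF, against 26.1 to 82.2 CPM in WT-ALF (median 48.6), with overlap (log2 fold change 1.02, SE 0.33, adjusted p 0.02458). The *PPO1* call was lost over all 36 libraries, in a fit of only the groups compared, and without WT-ALF at ZT15 or ZT19 or *Sk2*-ALF at ZT7 (adjusted p up to 0.136). Under TRF neither was called, at 102 ± 44.4 CPM for *PPO1* in *Sk2* against 68.0 ± 13.3 CPM in WT, and 58.5 ± 26.4 CPM for *PPO2* in *Sk2* against 37.7 ± 16.98 CPM in WT. The 95% intervals of the log2 fold change under TRF were -0.10 to 1.27 for *PPO1* and -0.19 to 1.44 for *PPO2*.

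The genes *lz*, *peb* and *PPO3* did not rise with them. Their sum was 5.43 to 11.6 CPM in *Sk2*-ALF against 3.88 to 18.2 CPM in WT-ALF, and 2.86 to 9.65 CPM in *Sk2*-TRF against 4.92 to 16.3 CPM in WT-TRF. In WT-ALF that sum was highest at ZT15 (18.2 CPM) and lowest at ZT23 (3.88 CPM), as were summed gut markers (7144 and 110.1 CPM). The sum is therefore not read here as a measure of crystal cells. None of the 3 was called higher. *lz*, the transcription factor that specifies crystal cells, was called lower in *Sk2* under TRF (log2 fold change -1.92, adjusted p 0.007172). Summed haemocyte markers were at 774.5 to 1253 CPM in *Sk2*-ALF against 962.2 to 1487 CPM in WT-ALF. Of 8 flight muscle markers, 4 were called lower in *Sk2* under ALF, and 2 lower and 1 higher under TRF. Over all genes tested, 22.8% were called under ALF and 24.9% under TRF. Summed fat body markers were at 20210 to 38630 CPM in *Sk2*-ALF against 27370 to 47510 CPM in WT-ALF, and 30540 to 69070 CPM in *Sk2*-TRF against 33020 to 54050 CPM in WT-TRF. Their part in the *Sk2* results was not tested.

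*Sp7* averaged 55.4 ± 8.89 CPM in *Sk2*-ALF (n = 5) against 31.9 ± 9.92 CPM in WT-ALF (n = 6), a log2 fold change of 0.79 (SE 0.24, adjusted p 0.01435). The ligand was not called in *Sk2* flies. *spz* was at 27.1 to 48.0 CPM in *Sk2*-TRF (median 35.8) against 31.8 to 39.4 CPM in WT-TRF, and at 30.1, 40.5, 38.3, 34.7 and 41.4 CPM in *Sk2*-ALF against 21.6 to 45.1 CPM in WT-ALF. The 95% intervals of its log2 fold change were -0.39 to 0.46 under TRF and -0.38 to 0.48 under ALF. *MP1*, also not called, had intervals of -0.35 to 0.27 under TRF and -0.37 to 0.25 under ALF.

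Because HFD and *Sk2* share their WT control, their differences from WT are not independent, and the models were also set against each other. Under TRF, 9 of the 10 genes were called between HFD and *Sk2*, 5 higher and 4 lower in HFD, where 45.9% of all genes tested were called (23.9% higher and 22% lower). Under ALF, 4 of 10 were called, 1 higher and 3 lower, where 33.3% of all genes were called (16.2% higher and 17% lower). The ligand was higher in HFD in both regimens, with a log2 fold change of 1.68 under TRF (SE 0.20, adjusted p 1.096e-07) and 1.31 under ALF (SE 0.21, adjusted p 2.313e-05). The HFD and *Sk2* libraries used did not overlap for *spz* in either regimen. The left-out *Sk2*-ALF library of ZT23 (61.4 CPM) was above HFD-ALF at ZT11 (60.1 CPM).

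Under TRF, *Hayan* (1.58, SE 0.24, adjusted p 5.162e-06), *nec* (1.20, SE 0.22, adjusted p 5.684e-05), *Sp7* (0.71, SE 0.23, adjusted p 0.01084) and *SPE* (0.60, SE 0.25, adjusted p 0.04617) were also higher in HFD on the log2 scale. The prophenoloxidases were lower in HFD, *PPO1* by a log2 fold change of -1.41 (SE 0.32, adjusted p 0.0005879) and *PPO2* by -1.24 (SE 0.38, adjusted p 0.008425), as were *grass* (-0.66, SE 0.23, adjusted p 0.02127) and *psh* (-0.39, SE 0.15, adjusted p 0.02625). Under ALF the genes called lower in HFD were *grass* (-1.06, SE 0.25, adjusted p 0.001296), *PPO1* (-1.04, SE 0.33, adjusted p 0.0157) and *psh* (-0.54, SE 0.15, adjusted p 0.006663). The *SPE* call under TRF was lost in 15 of 42 alternative settings, among them all 36 libraries (adjusted p 0.119), 32 libraries (0.0867), no filter (0.0736) and RLE size factors (0.0553). Over all 36 libraries the *psh* calls were also lost, under TRF (adjusted p 0.082) and under ALF (0.0671), and *grass* under TRF was lost in a fit of only the groups compared (0.052). Certain single libraries, when left out, ended the calls of *SPE*, *Sp7*, *grass* and *psh* under TRF and of *PPO1* under ALF, with adjusted p up to 0.0979.

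Markers of other cells differed between the same groups. Of 6 fat body markers, 4 were called lower in HFD than in *Sk2* under TRF (list median log2 fold change -0.90) and 3 under ALF (-0.83), and none higher. Within groups, the correlation with the sum of these markers over 34 libraries was 0.76 for *psh*, 0.64 for *PPO2* and 0.44 for *PPO1*. It was 0.46 for *nec* and 0.45 for *SPE*, which were higher in HFD under TRF. For the other genes it was 0.31 (*grass*), 0.27 (*Hayan*), -0.03 (*MP1*), -0.03 (*Sp7*) and -0.47 (*spz*). Of 8 haemocyte markers, 1 was called higher and 3 lower in HFD under TRF, and 1 higher and 2 lower under ALF. Over all genes tested, 45.9% were called under TRF and 33.3% under ALF. Of the 3 genes *lz*, *peb* and *PPO3*, 1 was called higher in HFD in each regimen. In HFD-ALF their sum was highest at ZT7 (25.09 CPM) and lowest at ZT23 (3.353 CPM), as were summed gut markers (5034 and 176.4 CPM). The part of these markers in the results was not tested.

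The balance of *SPE* to *nec*, the activating protease and the serpin, also separated the *Sk2* libraries. The ratio of their CPM was 1.04 to 1.65 in *Sk2*-TRF and 1.05 to 1.66 in *Sk2*-ALF. It was 0.674 to 1.02 in HFD-TRF and 0.576 to 0.929 in HFD-ALF, and 0.488 to 0.962 in WT-TRF and 0.521 to 1.01 in WT-ALF. The left-out libraries did not keep to this. *SPE* was below *nec* in *Sk2*-ALF at ZT23 (53.85 and 60.46 CPM) and above it in WT-TRF at ZT11 (25.7 and 20.54 CPM). In HFD both genes were higher than in WT, whereas in *Sk2*-TRF *nec* averaged 80.6 ± 10.3 CPM against 84.8 ± 19.3 CPM in WT-TRF. Under ALF *nec* averaged 85.3 ± 14.01 CPM in *Sk2* and 59.2 ± 14.4 CPM in WT (adjusted p 0.09898 in edgeR).

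The second question was whether TRF changed the cascade within a model. No gene of the 10 was called by edgeR in HFD, *Sk2* or WT, where 0.06%, 0.08% and 0% of all genes tested were called. At an unadjusted p under 0.05 there were 6 in HFD, 0 in *Sk2* and 3 in WT, where 13.98%, 8.35% and 7.74% of all genes tested had such a p. DESeq2 called 2 of the 10 in HFD (*SPE* and *Hayan*), 0 in *Sk2* and 0 in WT, and 52, 23 and 1 of all genes. The study's cutoffs, a minimum fold with an unadjusted p no higher than 0.05, were applied here to edgeR p-values, and 6 of 10 were then higher under TRF in HFD, 0 in *Sk2* and 3 in WT. Over all genes tested, these cutoffs took 4.02% as higher in HFD, 2.79% in *Sk2* and 2.72% in WT. Applied to DESeq2 p-values, they took the same 6, 0 and 3 genes, and 3.6%, 3.66% and 2.97% of all genes. The smallest adjusted p among the 10 was 0.1408 in HFD, 0.7096 in *Sk2* and 0.5541 in WT.

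In HFD the 6 genes were *SPE*, *Hayan*, *grass*, *nec*, *Sp7* and *MP1*, 5 of them proteases and 1 the serpin. The log2 fold change of TRF over ALF was 0.95 for *SPE* (SE 0.25), 0.95 for *Hayan* (SE 0.24), 0.76 for *grass* (SE 0.24), 0.70 for *nec* (SE 0.22), 0.48 for *Sp7* (SE 0.23) and 0.44 for *MP1* (SE 0.14). *Hayan*, *grass* and *MP1* were higher under TRF at 6 of 6 times, and *SPE*, *nec* and *Sp7* at 5 of 6. In WT the 3 genes were *PPO2* (0.96, SE 0.40), *SPE* (0.56, SE 0.26) and *nec* (0.52, SE 0.23). *grass* did not pass these cutoffs in WT (0.40, SE 0.25) or *Sk2* (0.35, SE 0.24).

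This comparison turned on 1 library. HFD-ALF at ZT7 held *SPE* at 199 CPM, *nec* at 214 CPM and *Hayan* at 59.8 CPM, which is 3.29, 2.28 and 2.43 times the mean of the other 5 HFD-ALF libraries. *MP1* (1.54 times), *Sp7* (1.52 times) and *spz* (1.45 times) were also high there, whereas *grass* (0.911 times) and *PPO1* (0.982 times) were not. The sum of 7 Toll output peptides was 9797 CPM in that library, against 2577 to 4256 CPM in the other HFD-ALF libraries. Summed gut markers were 5034 CPM, against 176.4 to 3532 CPM, and summed fat body markers 25370 CPM, within the 12950 to 27880 CPM of the others. Its total of 7647675 counts was the smallest of the HFD libraries. The HFD-TRF library of the same time stood apart in another way, with the highest *spz* (192 CPM), *Sp7* (148 CPM) and *MP1* (174 CPM) of its group and the lowest *SPE*, *nec*, *grass*, *psh*, *PPO1* and *PPO2*. Its fat body marker sum of 10240 CPM was the lowest of HFD-TRF, where the others had 17170 to 42670 CPM. Neuron markers moved in the opposite direction to the 6 genes in HFD. By the same cutoffs, 4 of 5 (*Syt1*, *brp*, *nSyb* and *para*) were lower under TRF, with log2 fold changes of -1.22 to -1.05, and none was called (smallest adjusted p 0.2266, for *Syt1*). Their sum was 72.71 to 262.8 CPM in HFD-TRF and 123.1 to 576.8 CPM in HFD-ALF, where the ZT7 library held the lowest sum of its group. Within groups the correlation with that sum over 34 libraries was -0.49 for *nec*, -0.41 for *SPE*, -0.39 for *Hayan*, -0.32 for *grass*, -0.13 for *MP1* and -0.07 for *Sp7*. The part of these markers was not tested.

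Without HFD-ALF at ZT7, 4 of the 10 genes were called higher under TRF in HFD, where 0.659% of all genes tested were called higher. That library was singled out for its high values of these genes, so leaving it out was bound to raise their differences. The share over all genes is thus not a like background for them, and these calls are given as a description. They were *SPE* (log2 fold change 1.42, adjusted p 8.74e-05), *Hayan* (adjusted p 0.00472), *nec* (0.98, adjusted p 0.0101) and *MP1* (0.57, adjusted p 0.04). *SPE* was then at 112 to 190 CPM in HFD-TRF against 45.3 to 79.6 CPM in HFD-ALF, and *Hayan* at 34.7 to 96.5 CPM against 13.5 to 32.9 CPM, both without overlap. Whether that library stood for its group or its time of day was not tested, since each time had 1 library.

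**Figure D3:**
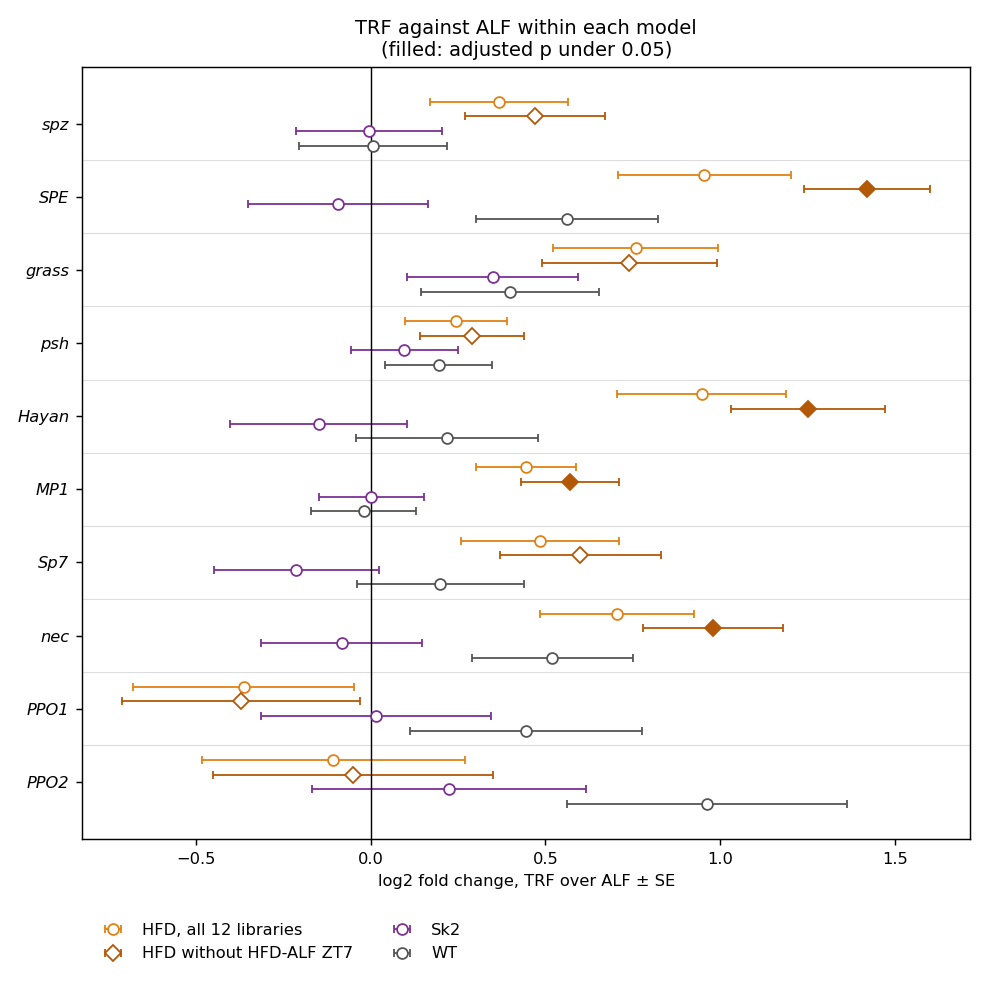
Log2 fold change of TRF over ALF (± SE, edgeR) in HFD (circles, all 12 libraries; diamonds, without HFD-ALF at ZT7), *Sk2* and WT; filled symbols are called at an adjusted p under 0.05. With all libraries no symbol is filled, and without the ZT7 library *SPE*, *Hayan*, *MP1* and *nec* are.

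Whether TRF acted differently in 1 model than in another was tested directly. No gene was called by edgeR for HFD minus WT, *Sk2* minus WT or HFD minus *Sk2*, where 0%, 0.01% and 0.04% of all genes were called. At an unadjusted p under 0.05 there were 2, 0 and 5 of the 10, where 7.98%, 6.88% and 12.51% of all genes had such a p. DESeq2 called 0 of the 10 in each, and 3, 8 and 18 of all genes. The 5 in HFD minus *Sk2* were *Hayan* (1.10, SE 0.35), *SPE* (1.05, SE 0.36), *nec* (0.79, SE 0.32), *Sp7* (0.70, SE 0.33) and *MP1* (0.44, SE 0.21), with the smallest adjusted p at 0.2608. Without HFD-ALF at ZT7, *SPE* (1.51, adjusted p 0.00506) and *Hayan* (1.40, adjusted p 0.0391) were called higher in this comparison, where 0.22% of all genes tested were. The same limit applies, since that library was singled out for its high values of these genes. For the prophenoloxidases the sign in HFD minus WT was negative, with 95% intervals of -1.74 to 0.13 for *PPO1* and -2.19 to 0.05 for *PPO2*.

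The third question was time of day. Over the 6 groups, no gene of the 10 was called by edgeR, where 2.31% of all genes tested were called, and DESeq2 called 0 of the 10 and 702 of all genes. *Hayan* was the 1 gene of the 10 with an unadjusted p under 0.05 (adjusted p 0.2628 in edgeR), where 15.68% of all genes had such a p. Relative to its group means it averaged 0.34 on the log2 scale at ZT11, with 5 of 5 libraries above their group mean. It averaged -0.20 at ZT15 and at ZT19, each with 1 of 6 libraries above. At ZT23 it averaged -0.25, the lowest value, but varied more (SD 0.59), with 2 of 5 libraries above. The ZT23 level of *Hayan* was the highest of the group in WT-ALF (18.7 CPM). In HFD-TRF its mean was 41 CPM at night and 76.1 CPM in the day, and in HFD-ALF 20.9 CPM at night and 39.96 CPM in the day, the day including the ZT7 library at 59.8 CPM. In *Sk2*-TRF the means were 19.6 CPM at night and 19.5 CPM in the day, and in *Sk2*-ALF 18.9 CPM and 23.5 CPM. In WT-TRF they were 15.5 CPM at night and 20.2 CPM in the day, and in WT-ALF 14.3 CPM and 15.7 CPM. The night mean was the lower one in 5 of 6 groups.

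At night against day, no gene was called under TRF or ALF, where 0.11% and 0.01% of all genes were called. *Hayan* had a log2 difference of -0.42 under TRF (SE 0.16, adjusted p 0.4331) and -0.46 under ALF (SE 0.16, adjusted p 0.7883), and *PPO1* one of -0.74 under ALF (SE 0.26, adjusted p 0.7883). These were the only genes of the 10 with an unadjusted p under 0.05, 1 under TRF and 2 under ALF, where 9.43% and 5.14% of all genes had such a p. DESeq2 called 0 of the 10 in each, and 61 and 7 of all genes. The night effect under TRF minus that under ALF was called for 0 of 10 genes by edgeR and by DESeq2, with 0 at an unadjusted p under 0.05 (5.88% of all genes) and 0% of all genes called by edgeR. DESeq2 called 0 of all genes.

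**Figure D4:**
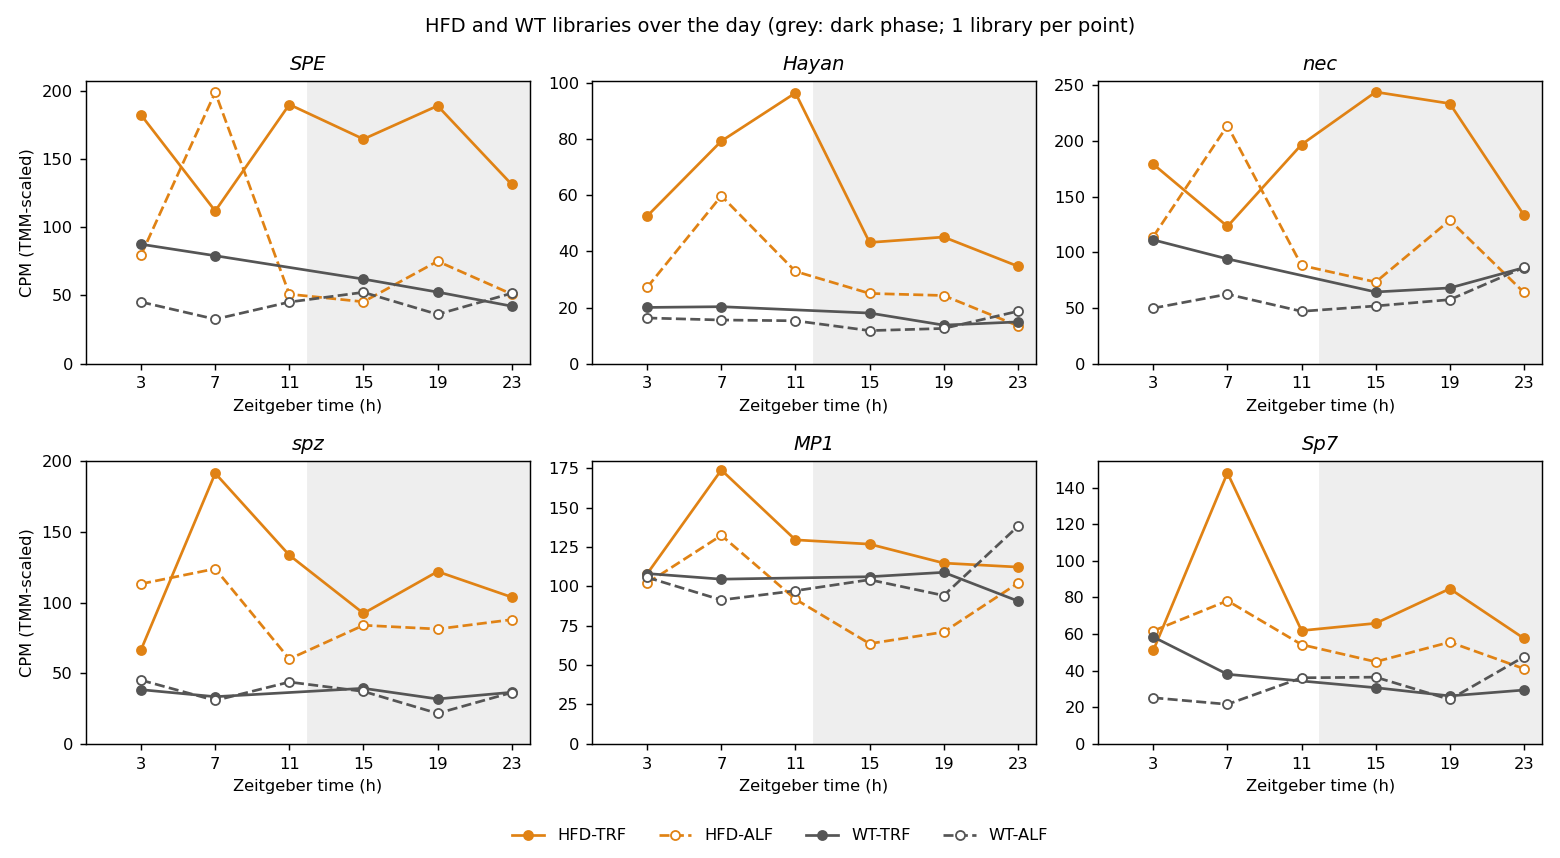
CPM of *SPE*, *Hayan*, *nec*, *spz*, *MP1* and *Sp7* by Zeitgeber time in HFD (orange) and WT (grey) libraries, TRF as filled points and ALF as open points, with 1 library per point and the dark phase shaded; WT-TRF at ZT11 is left out. The HFD-ALF library at ZT7 holds 199 CPM of *SPE*, above all other HFD-ALF libraries, and *Hayan* in HFD-TRF reaches 96.5 CPM at ZT11.

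Within groups, the 10 genes formed no single block. Of 45 pairs, 38 had a positive Pearson correlation of log2 CPM centred within groups over 34 libraries, with a median of 0.32 and a range of -0.45 to 0.77. The highest were those of *PPO1* with *PPO2* (0.77) and *SPE* with *nec* (0.71), and the lowest that of *psh* with *spz* (-0.45). These libraries share depth scaling and dissection, and HFD-ALF at ZT7 enters all pairs. *PPO1* was the gene of the whole table most like *PPO2* but for *Galt* (0.78), and *PPO2* was the gene most like *PPO1* (0.77).

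The genes most like the other members were *CG4847* for *nec* (0.89), *CG15067* for *SPE* (0.86), *tra* for *Hayan* (0.83), *Yp3* for *psh* (0.81), *CG6701* for *spz* (0.79), *CG16712* for *MP1* (0.79), *Tsf3* for *Sp7* (0.78) and *CG6409* for *grass* (0.75). *Yp3* encodes a yolk protein made in the fat body. In the same way, the correlation with summed fat body markers was 0.76 for *psh* and 0.64 for *PPO2*, and -0.47 for *spz*. It was 0.46 for *nec*, 0.45 for *SPE* and 0.44 for *PPO1*. The correlation with the summed Toll output peptides was 0.67 for *SPE* and 0.51 for *spz*.

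Genes that act before and after the cascade were followed in lists. Beside these lists, HFD against WT called 10.5% of all genes tested under TRF and 16.6% under ALF. *Sk2* against WT called 24.9% and 22.8%. Of 5 genes of recognition and the apical protease, 2 were called higher in HFD in both regimens, *PGRP-SA* (log2 fold change 1.503 under TRF and 0.82 under ALF) and *PGRP-SD* (2.67 and 1.27). *PGRP-SD* was also called higher in *Sk2* under TRF (3.27) and ALF (2.79), and *GNBP3*, the sensor of fungal glucans, was called lower in HFD under ALF (-0.62). Of 7 receptor and cytosolic genes, *Tl*, the receptor (0.80 under TRF and 0.40 under ALF), and *cact*, the inhibitor of the NF-κB factors (0.87 and 0.62), were called higher in HFD in both regimens, and the kinase gene *pll* under TRF (0.85). In *Sk2* the NF-κB genes *dl* (-1.26 under TRF and -1.29 under ALF) and *Dif* (-0.56 and -0.47) were called lower. *tub*, an adaptor gene, was the 1 gene of this list called for time of day (adjusted p 0.006478).

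Of the 5 other serpins of these cascades, 5 were called higher in HFD under TRF and 4 under ALF, none lower. *Spn28Dc*, which restrains phenoloxidase, had log2 fold changes of 3.65 under TRF and 3.29 under ALF, above those of any of the 10 genes. *Spn27A*, *Spn77Ba* and *Spn88Ea* were higher in both regimens (0.94, 0.75 and 1.76 under TRF, 1.18, 0.62 and 1.44 under ALF), and *Spn42Dd* under TRF (0.82). In *Sk2*, *Spn27A* (1.39) and *Spn77Ba* (0.57) were called higher under ALF and none under TRF.

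Of 7 Toll output peptides, 6 were called higher in HFD in each regimen. Their summed level was 6498 to 9291 CPM in HFD-TRF and 2577 to 9797 CPM in HFD-ALF, against 684.1 to 2665 CPM in WT-TRF and 852.3 to 1730 CPM in WT-ALF. In *Sk2* it was 728.3 to 1885 CPM under TRF and 787.6 to 1549 CPM under ALF, with 2 peptides called higher and 1 lower in each regimen. Of 5 other melanin genes, *Ddc* (2.47 under TRF and 1.99 under ALF) was called higher in HFD in both regimens and *yellow-f* (1.01) under TRF. *yellow-f2* was called lower in HFD (-0.62 and -0.99) and higher in *Sk2* (0.53 and 0.72).

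Of 5 paralogs of *spz*, 3 were tested. *spz3* was called higher in HFD under ALF (0.75), and *spz5* (-0.83) and *NT1* (-1.54) lower in *Sk2* under TRF. Of the 4 proteases of the embryonic dorsoventral cascade, 2 were tested; *ea*, which cleaves Spätzle in the embryo, was called higher in *Sk2* under ALF (2.55), and *ndl* lower in HFD under ALF (-4.28). Summed eggshell and ovary markers ranged up to 1.90 CPM in HFD-ALF and 393.4 CPM in *Sk2*-ALF, against 785.2 CPM in WT-ALF. Of 5 neuron markers, 4 were called higher in HFD under ALF (summed level 123.1 to 576.8 CPM, against 88.11 to 157.1 CPM in WT-ALF) and 0 under TRF. The part of these cells in the results was not tested.

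The libraries left out as outliers, WT-TRF of ZT11 and *Sk2*-ALF of ZT23, stood apart in the ligand. In both, *spz* and *Sp7* were at or above the mean of the other libraries of their group and the other 8 genes were below it.

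**Figure D5:**
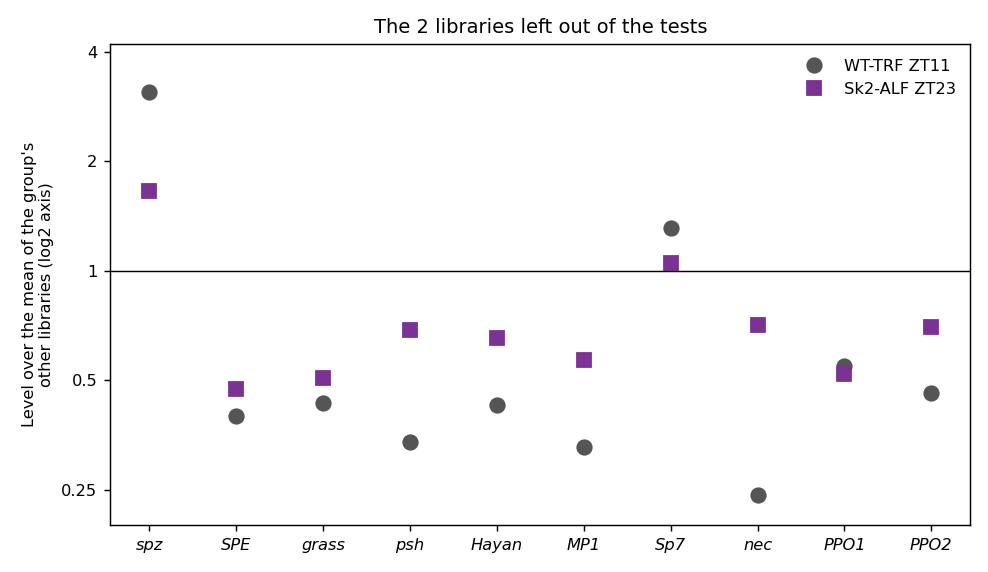
Level of each gene in the libraries left out of the tests, divided by the mean of the other libraries of the same group, on a log2 axis with a line at 1 (circles, WT-TRF ZT11; squares, *Sk2*-ALF ZT23). *spz* is at 3.09 and 1.66 times that mean, and *nec* in WT-TRF ZT11 at 0.242 times.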

How the data were processed

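RNA was measured in indirect flight muscle (IFM), with 36 libraries of pooled female flies. The authors deposited raw counts per gene: single-end reads of 50 bases were aligned with STAR, and uniquely aligned reads were counted with featureCounts 1.5.0-p1 over exons of a dm6 annotation on the reverse strand. The sources give several STAR versions and builds. The deposited table holds 16727 genes and a gene length in bases. As in the study's methods, the WT-TRF library of ZT11 and the *Sk2*-ALF library of ZT23 were set aside as outliers.

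Counts of the 34 remaining libraries, with totals of 3329519 to 30682673, were fitted by edgeR 4.0.16 under R 4.3.3 (quasi-likelihood test on 6 group means after filterByExpr and TMM scaling, 9996 genes). Time of day was tested with ZT added to the group means, and night against day on group and window means. P-values were adjusted by Benjamini-Hochberg across the whole set of tested genes and called at 0.05, and SE is that of the edgeR log2 fold change. The study's cutoffs, a fold of 1.25 or more with an unadjusted p no higher than 0.05, were applied to edgeR p-values and, added later, to DESeq2 p-values. CPM are TMM-scaled, and RPKM divide them by exon length. Intervals of fold changes are at 95% and unadjusted. Each group and time had 1 library, so the spread within a group holds time of day and variation between pools together, and nothing states that pools came from separate cultures. The gene names follow the table, and FlyBase IDs came from the Ensembl BDGP6 annotation.

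All 10 genes were named by rule, with genes of related lists named where called. The genes and lists were chosen with earlier results of these data known. The comparisons of HFD with *Sk2*, the ratios between genes, and the sets without HFD-ALF at ZT7 were added after values were seen. Alternatives were all 36 libraries, 32 libraries (also without the outliers' counterparts in the other regimen), a fit of only the groups compared, other filters, a block for the time point, RLE size factors, DESeq2 1.42.0, and leaving out each library in turn.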

Additional observations from a re-analysis of the deposited data

Results flagged for a closer look

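In each group, the gap of the highest or lowest library to the nearest other, divided by the group's range, was set against Dixon's 95% critical value, which chance passes in about 1 of 20 groups. On the CPM scale 7 of 60 sets of libraries (10 genes in 6 groups) passed it, and on the log2 scale 4. Only on the CPM scale, *SPE* was at 199 CPM in HFD-ALF at ZT7, against 45.3 to 79.6 CPM in the others of the group. HFD-TRF at ZT7 held *MP1* at 174 CPM, against 108 to 129 CPM, and *Sp7* at 148 CPM, against 51.1 to 84.8 CPM, also only on that scale. The other 4 passed on both scales. *MP1* was at 90.7 CPM in WT-TRF at ZT23, against 105 to 109 CPM in the others of the group, and at 138 CPM in WT-ALF at ZT23, against 91.3 to 106 CPM. *Sp7* was at 39.8 CPM in *Sk2*-ALF at ZT15, against 57.4 to 62.1 CPM. *PPO1* was at 83.4 CPM in HFD-ALF at ZT11, against 37.2 to 48.8 CPM.

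The libraries left out as outliers held more *spz* than any other library of their model. *spz* was at 111 CPM in WT-TRF at ZT11, where the highest other WT library had 45.1 CPM, and at 61.4 CPM in *Sk2*-ALF at ZT23, where the highest other *Sk2* library had 48.0 CPM. In WT-TRF at ZT11, *spz* was at 3.09 times and *Sp7* at 1.31 times the mean of the other libraries of the group, while the other 8 genes were at 0.242 (*nec*) to 0.546 times (*PPO1*). In *Sk2*-ALF at ZT23, *spz* was at 1.66 times and *Sp7* at 1.05 times, and the other 8 genes at 0.474 to 0.709 times. These libraries had 8417607 and 26267454 counts.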

How the results depend on the processing

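Of the counts of called genes, 3 moved by more than 1.5 times. TRF against ALF in HFD gave 0 genes as reported, 2 with DESeq2 and 0 to 4 when single libraries were left out. *Sk2* against WT under TRF gave 1 to 2, and the TRF effect in HFD minus *Sk2* 0 to 2, when single libraries were left out. No fold change of a called gene reversed in any setting. The *psh* call in HFD against WT under ALF was lost over 36 and 32 libraries, in the fit of only the groups compared, at 10 counts in every library, and without WT-TRF at ZT3, ZT7, ZT15, ZT19 or ZT23, WT-ALF at ZT11, ZT15, ZT19 or ZT23, HFD-ALF at ZT3, ZT15 or ZT23, or *Sk2*-ALF at ZT11 or ZT19. The *psh* call in HFD against *Sk2* was lost over 36 libraries under TRF (adjusted p 0.082) and ALF (0.0671), *SPE* under TRF over 36 libraries (0.119), over 32 (0.0867), with no filter (0.0736) and with RLE size factors (0.0553), and *grass* under TRF in the fit of only the groups compared (0.052). Between HFD and *Sk2*, single libraries ended the calls of *SPE* under TRF (11 of 34 fits, adjusted p up to 0.0882), *psh* under TRF (HFD-TRF at ZT7, ZT19 or ZT23, up to 0.0827), *grass* under TRF (HFD-TRF at ZT7 or *Sk2*-TRF at ZT19, up to 0.0861), *Sp7* under TRF (HFD-TRF at ZT7, 0.0821) and *PPO1* under ALF (*Sk2*-ALF at ZT7, 0.0979).

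TRF and ALF libraries of the same time point had a mean correlation of deviations of 0.152 in HFD, 0.214 in *Sk2* and -0.0214 in WT. At different time points it was -0.0298, -0.0427 and 0.00444. Libraries of the same time were thus more alike in HFD and *Sk2* but not in WT. The main fit did not pair them. With a replicate block for the time point, 6 and 5 genes were called in HFD against WT under ALF and TRF, 5 and 2 in *Sk2* against WT, and 0 for TRF in each model, and no count of called genes among the 10 changed.

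The background moved more. HFD against WT called 1659 genes of all tested under ALF and 1047 under TRF, but 955 and 569 in fits of only the groups compared, and 982 under ALF with at least 10 counts in every library. TRF against ALF in HFD called 6 genes of all tested, but 52 with DESeq2 and 101 without HFD-ALF at ZT7. Time of day called 231, but 36 over all 36 libraries, 105 over 32 and 702 with DESeq2. With 1 library per group and time, a peak at a single time cannot be told apart from a deviating pool.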
